A study of Mus musculus with 23 samples.

Results

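The genes described here are 10 transcription factors that set and keep the identity of the intestinal epithelium: Cdx1, Cdx2, Hnf4a, Hnf4g, Gata4, Gata6, Klf4, Klf5, Sox9 and Onecut2. They were chosen by name from the 22350 genes listed in the RNA-seq reference, and all 10 passed the filter on low counts in every comparison. CDX1 and CDX2 are homeobox factors that set intestinal against gastric fate, and HNF4A and HNF4G are related nuclear receptors that drive enterocyte genes of the brush border and of fat transport. GATA4 and GATA6 are zinc finger factors, and GATA4 holds ileal genes down in the proximal small intestine. KLF5 is a zinc finger factor of the proliferating crypt, KLF4 one of differentiated cells that have left the cell cycle, SOX9 marks the crypt base, and ONECUT2 is a cut-homeobox factor.

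The study deleted Rptor, which encodes the Raptor subunit of the mTORC1 kinase complex, to ask how impaired translation changes intestinal stem cells. RNA-seq covered intestinal organoids, which are epithelial cultures grown from crypts. WT organoids (VillinCre.ERT2.RPL22.HA) and Rptor organoids (VillinCre.ERT2.Rptor.fl/fl) had 2 lines each, with 4 libraries a group that were summed to 1 sample a line. SCe organoids were VillinCre.ERT2.RPL22.HA under stem cell enrichment with 10 µM CHIR 99021 and 1.5 mM valproic acid (3 samples). Ribo-seq, which counts the mRNA fragments (footprints) held by ribosomes, covered 3 samples of Rptor organoids, here VillinCre.ERT2.Rptor.fl/fl.RPL22.HA, and 3 of SCe organoids as above. Mouse Ribo-seq covered small intestine of WT mice, Lgr5Cre.ERT2.RPL22.HA (3 mice), and Rptor mice, Lgr5Cre.ERT2.Rptor.fl/fl.RPL22.HA (3 mice). All samples were C57BL/6, and no age was given in the labels. VillinCre.ERT2 is an inducible Cre of the gut epithelium, Lgr5Cre.ERT2 one of Lgr5-expressing crypt base cells, and RPL22.HA a tagged ribosomal protein used to pull ribosomes down. The labels call every group but SCe untreated, while the study describes induction of Cre with tamoxifen. All Ribo-seq samples, of organoids and of mice, were prepared with 100 µg/ml cycloheximide, an inhibitor of translation elongation. No cycloheximide is given for the RNA-seq samples. The Rptor lines of the RNA-seq carry no RPL22.HA in their label, so there the deletion and the tag cannot be told apart.

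Totals on genes were 27439459 to 67598878 counts a sample in RNA-seq, 1106178 to 8257457 in organoid Ribo-seq and 772077 to 8238388 in mice. Rptor RNA was 51.5 and 47.9 counts per 1000000 (CPM) in WT lines and 14.8 and 15.5 CPM in Rptor lines, and it fell by 1.71 on the log2 scale (SE 0.08, edgeR adjusted p = 0.00516). Rptor footprints were 17.3, 18.7 and 15.95 CPM in Rptor organoids against 15.2, 41.9 and 21.0 CPM in SCe (adjusted p = 0.318), and 32.6, 34.4 and 36.9 CPM in Rptor mice against 41.7, 39.7 and 44.75 CPM in WT mice (adjusted p = 0.150). The footprints thus did not pass the check of the deletion, and "Rptor" is for them the group as labelled. SCe replicate 1 stood apart from SCe replicates 2 and 3 in RNA-seq, with a chi-square per degree of freedom of 172 and 191.9 against 19.8 between the other two, and it was the shallowest RNA-seq sample. In mice, summed footprints were 1296 to 3361 CPM for 8 pancreatic acinar genes, 1267 to 1481 CPM for 6 smooth muscle genes, 785 to 1216 CPM for 5 mesenchymal genes and 826 to 1164 CPM for 4 immune genes, and none of these genes was at 0 in every mouse of a group. In organoids these 4 lists summed to at most 27.9 CPM. In bulk samples, fewer cells of a type and less RNA per cell cannot be told apart.

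The promoters of 3 members were listed in the RefSeq promoter table (GRCm38.p6, the assembly also called mm10), and they are shown because Hnf4a has a distal start, P2, and a proximal start, P1, whose transcripts are counted separately in the files. Each window runs 5′ to 3′ on the gene's strand and lies upstream of the transcript starts listed there. Capitals mark the letters of 7 motifs searched on both strands: TTTATG for CDX, CAAAGTCCA for HNF4, GTTAAT for a half-site of HNF1, AGATAA for GATA, GGGNGTGG for KLF, ATCAAT for ONECUT and ACAATG for SOX.
Hnf4a P2, chr2:163506607-163506807, plus strand, upstream of Hnf4a-205: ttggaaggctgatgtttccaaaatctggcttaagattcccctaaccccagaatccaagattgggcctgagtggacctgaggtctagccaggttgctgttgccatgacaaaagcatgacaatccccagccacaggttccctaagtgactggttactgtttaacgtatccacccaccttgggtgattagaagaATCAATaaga
Hnf4a P1, chr2:163546905-163547154, plus strand, upstream of Hnf4a-201 and Hnf4a-202: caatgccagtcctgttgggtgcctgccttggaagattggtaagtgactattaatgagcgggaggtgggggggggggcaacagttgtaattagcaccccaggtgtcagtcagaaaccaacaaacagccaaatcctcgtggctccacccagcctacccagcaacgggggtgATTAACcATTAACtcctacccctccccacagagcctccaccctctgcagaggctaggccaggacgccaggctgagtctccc
Cdx2, chr5:147307271-147307499, minus strand, upstream of Cdx2-201: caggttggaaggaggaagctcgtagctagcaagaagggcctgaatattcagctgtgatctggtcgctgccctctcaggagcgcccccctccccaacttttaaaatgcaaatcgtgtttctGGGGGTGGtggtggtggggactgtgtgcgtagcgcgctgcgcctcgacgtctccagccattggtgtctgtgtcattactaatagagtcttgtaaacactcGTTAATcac
Klf4, chr4:55532476-55532725, minus strand, upstream of Klf4-201 and Klf4-203: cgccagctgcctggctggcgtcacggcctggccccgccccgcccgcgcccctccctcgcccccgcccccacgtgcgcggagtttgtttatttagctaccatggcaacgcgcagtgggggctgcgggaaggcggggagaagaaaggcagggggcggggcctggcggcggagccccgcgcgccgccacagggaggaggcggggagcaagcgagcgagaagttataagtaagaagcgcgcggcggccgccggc

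The P2 window held the ONECUT letters ATCAAT, with the last letter at base 5 counted back from the end of the window. The P1 window held the HNF1 half-site at 2 places, on the minus strand, and the Cdx2 window held the KLF letters and an HNF1 half-site, with no overlap between matches. The Klf4 window held 0 matches. Of 32851 promoter windows of 250 bases, 6.72% held the ONECUT letters, 6.43% the HNF1 half-site, 15.9% the KLF, 10.8% the CDX, 9.99% the GATA, 10.7% the SOX and 0.384% the HNF4 letters. The P2 and Cdx2 windows were shorter, at 201 and 229 bases. A match describes these letters and is no evidence of binding.

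After Rptor deletion in organoids, RNA of Klf4 and Klf5 rose and that of Hnf4a fell against WT, and the other 7 members did not pass the test. These were 3 of 10 members, where 22.6% of the 14131 genes tested were called, and the members' median log2 fold change was -0.02 against -0.00494 over all genes. Only Klf4 was still called without WT line 1, WT line 2 or Rptor line 1. With 2 lines a group, 69.1% of all genes had groups that did not overlap, as had 6 members.

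Under stem cell enrichment, Cdx1, Cdx2, Hnf4a, Gata4 and Onecut2 RNA fell against WT, and no member rose. The members' median log2 fold change was -0.65, against 0.02 over all genes. The 5 of 10 called stand beside 42.3% of the 14925 genes tested (19.9% called lower), so the count itself lies near the background, and 22.4% of genes were called higher. The count was 9 without SCe replicate 1, and 3 without either WT line. With DESeq2 it was 8, with Klf4, Klf5 and Sox9 called as well. Rptor against SCe organoids gave 7 of 10 members higher and none lower in RNA, with 42.7% of the 15103 genes tested called and 68.1% of genes not overlapping, as 9 members, and 4 of 10 without either Rptor line. In Rptor against SCe RNA, 21% of all genes were called higher and 21.8% lower. The RNA comparisons share libraries, so a member low in SCe enters both comparisons with SCe.

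In footprints of organoids, Hnf4a, Hnf4g and Klf5 were higher in Rptor than in SCe (3 of 10, with 16.5% of the 10817 genes tested called, 6.63% higher and 9.84% lower), and 1 of 10 was called without Rptor replicate 3. In mice, Hnf4a, Hnf4g and Klf5 were higher and Cdx2 and Gata4 lower in Rptor than in WT (5 of 10, with 13.4% of the 11515 genes tested called, 7.47% higher and 5.97% lower). The mouse count rested on single mice: it was 1 without WT mouse 3 or Rptor mouse 2, 2 without WT mouse 1, 3 without WT mouse 2 or Rptor mouse 3, and 7 without Rptor mouse 1. Median log2 fold changes of the members were 0.26 in organoid footprints and -0.02 in mice, against -0.02 over all genes in each.

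**Figure D1:**
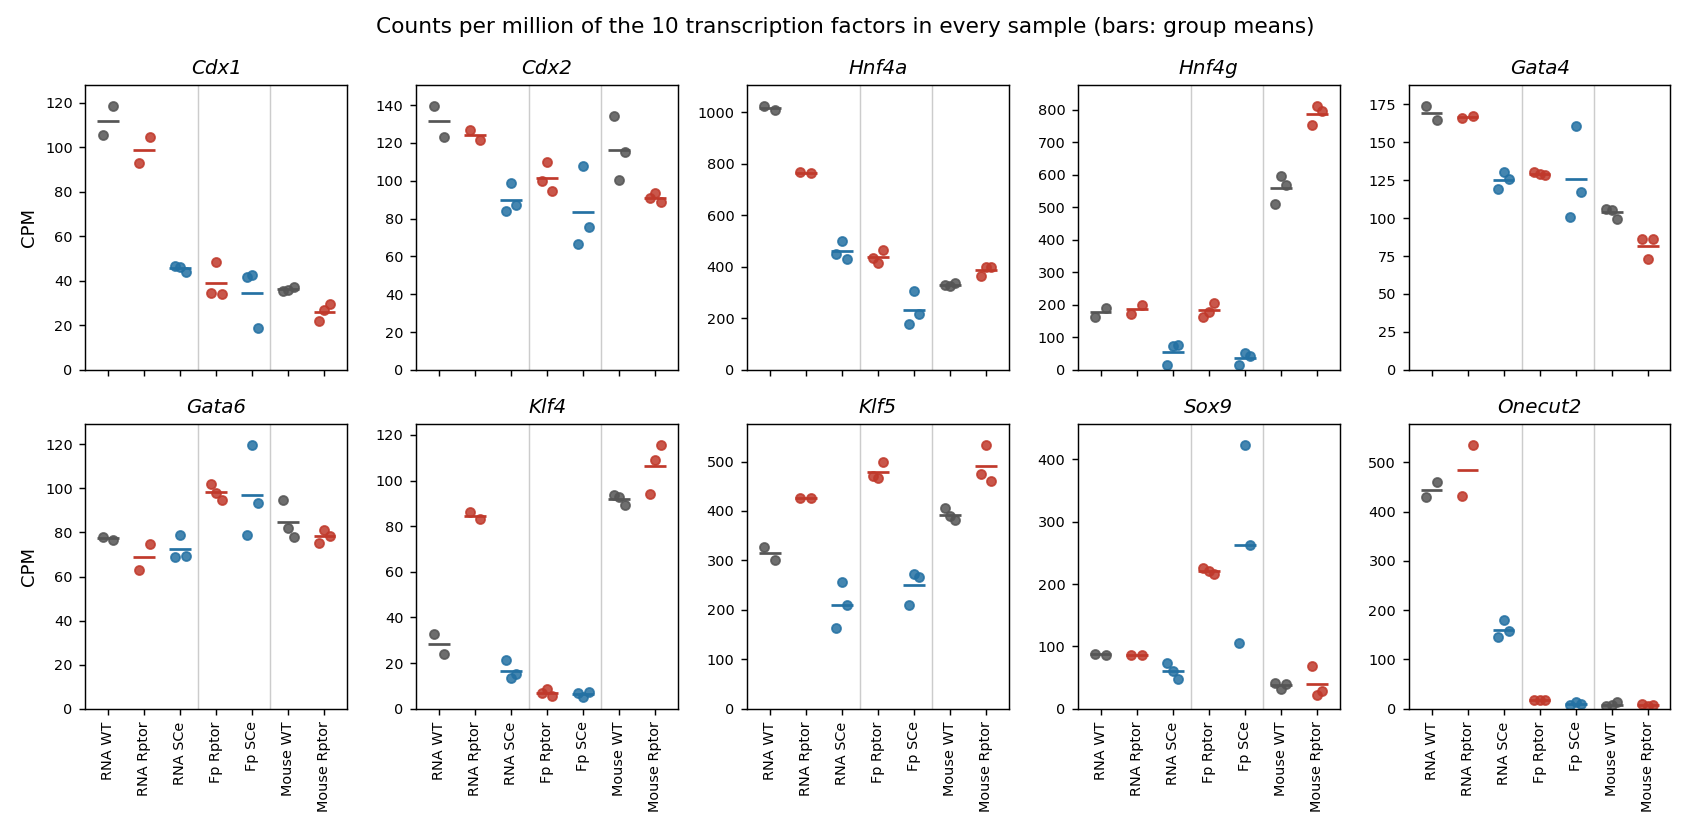
CPM on TMM-scaled library sizes (linear vertical axes) of the 10 transcription factors, with a point for each sample and a bar for each group mean; Fp marks organoid footprints. Klf4 RNA stood at 86.2 and 83.2 CPM in Rptor lines, above all WT and SCe samples, while its organoid footprints stayed between 5.13 and 8.58 CPM.

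**Figure D2:**
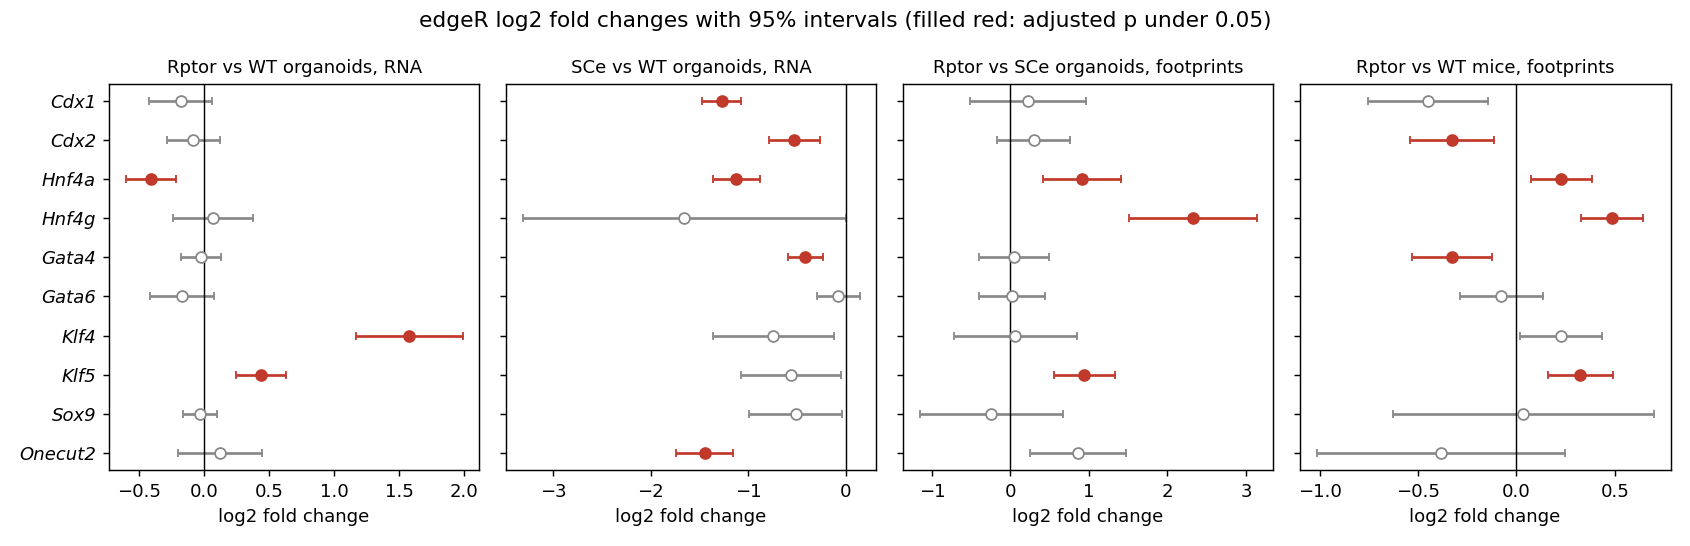
Log2 fold change of each member (horizontal axis, edgeR) with its 95% interval in 4 comparisons, filled red where the adjusted p was under 0.05. All 10 estimates are below 0 for SCe against WT organoids, and Hnf4g is called higher in both footprint comparisons, against SCe organoids and against WT mice.

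Cdx1 RNA was lower in SCe than in every other organoid sample. It was 105 and 118.5 CPM in WT lines, 93.0 and 105 CPM in Rptor lines, and 46.85, 46.4 and 44.0 CPM in SCe. It fell by 1.27 on the log2 scale from WT to SCe (SE 0.08, edgeR adjusted p = 0.00127), and Rptor lines were 1.115 above SCe (adjusted p = 0.00134). Both calls held under all 12 alternatives run. Footprints of Cdx1 were 34.4, 48.3 and 34.2 CPM in Rptor organoids and 41.8, 42.8 and 19.0 CPM in SCe, which overlap (log2 fold change 0.22, 95% interval -0.51 to 0.96, adjusted p = 0.675). In mice they were 35.4, 36.1 and 37.1 CPM in WT and 22.1, 26.8 and 29.7 CPM in Rptor, on 28 to 235 counts a mouse. All Rptor mice were below all WT mice, as happened in either direction for 31.1% of all genes, and the log2 fold change of -0.45 (SE 0.14) missed the threshold (adjusted p = 0.0510). Without Rptor mouse 3 it was -0.57 (adjusted p = 0.0411).

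Cdx2 RNA was 139.5 and 123 CPM in WT lines, 127 and 122 CPM in Rptor lines, and 84.3, 98.7 and 87.0 CPM in SCe. SCe lay below all 4 lines, and the level fell by 0.525 from WT to SCe on the log2 scale (SE 0.10, edgeR adjusted p = 0.0142). The call was lost without WT line 1 (adjusted p = 0.0958), WT line 2 (0.0559) or SCe replicate 3 (0.0565). Rptor lines were 0.47 above SCe (adjusted p = 0.0140), which was lost without Rptor line 1 (0.0952), Rptor line 2 (0.0770) or SCe replicate 3 (0.0625). Organoid footprints of Cdx2 overlapped, at 100.0, 110 and 94.75 CPM in Rptor and 66.7, 108 and 75.4 CPM in SCe.

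In mice Cdx2 footprints were 134, 100.4 and 115 CPM in WT and 90.9, 93.8 and 88.55 CPM in Rptor. Every Rptor mouse was below every WT mouse, and the level fell by 0.33 on the log2 scale (SE 0.10, edgeR adjusted p = 0.0437). The call was lost without WT mouse 1 (adjusted p = 0.116), WT mouse 3 (0.176), Rptor mouse 2 (0.115) or Rptor mouse 3 (0.140), with DESeq2 (0.148), with the replicate block (0.0635), with an offset for effective length (0.135) and with only the transcript with most counts (0.203). Beside it, summed footprints of the 5 mesenchymal genes were 1013 to 1216 CPM in Rptor and 785 to 877 CPM in WT mice, and those of 7 goblet genes 30240 to 33810 CPM and 25550 to 25870 CPM. Lower in Rptor mice were the sums of the proliferation genes (568 to 680 CPM against 744.5 to 793 CPM), Paneth genes (5353 to 8926 CPM against 9777 to 10650 CPM) and immune genes (826 to 892 CPM against 1105 to 1164 CPM), and the fetal-like genes summed to 246 to 291 CPM against 154 to 185 CPM. Their part in the mouse differences of the members was not tested.

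Gastric genes, which CDX2 keeps off in the intestine, were counted beside the CDX factors from a list of 10. In Rptor against WT organoids 5 of the 8 tested rose and none fell, beside 11.6% of all genes called higher, and in SCe against WT 4 of the 5 tested fell, beside 19.9% called lower. Their summed RNA was 152 and 203 CPM in WT lines, 196.5 and 294 CPM in Rptor lines and 4.59 to 10.4 CPM in SCe, and Sox2 was at 0 in all 3 groups. In mice, where 5.97% of all genes were called lower, the 2 tested fell, with summed footprints of 30.3, 19.2 and 102.6 CPM in WT and 9.22, 7.92 and 6.695 CPM in Rptor.

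Hnf4a had the highest RNA level per length of the members in each organoid group, in TPM (CPM divided by effective length and rescaled to the same total): 383 ± 2.25 in WT (SD, n = 2), 323 ± 15.2 in Rptor (SD, n = 2) and 182 ± 37.1 in SCe (SD, n = 3). In CPM it was 1024 and 1007 in WT lines, 766 and 764.5 in Rptor lines, and 449, 501 and 430 in SCe. The 3 groups did not overlap. It fell by 0.41 on the log2 scale in Rptor lines (SE 0.07, edgeR adjusted p = 0.0260). That call was lost without WT line 1 (adjusted p = 0.146), WT line 2 (0.1255), Rptor line 1 (0.0580) or Rptor line 2 (0.0508), with log2 fold changes of -0.42 to -0.39, and with all 3 RNA-seq groups in one fit (0.0505). It fell by 1.12 in SCe (SE 0.10, adjusted p = 0.00199), and Rptor lines were 0.74 above SCe (adjusted p = 0.00473), and these calls held under all 12 alternatives run.

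Hnf4a footprints were 433, 414.5 and 463.5 CPM in Rptor organoids and 177, 307 and 215 CPM in SCe. The groups did not overlap, as for 39.3% of all genes, and Rptor was 0.91 higher on the log2 scale (SE 0.22, edgeR adjusted p = 0.0242). The call was lost without Rptor replicate 1 (adjusted p = 0.0855), 2 (0.0787) or 3 (0.106), with the offset for effective length (0.78, 0.179) and with only the transcript with most counts (1.83, 0.0984). In mice footprints were 330, 326 and 336 CPM in WT and 364, 398 and 400.4 CPM in Rptor. Every Rptor mouse was above every WT mouse, and the rise was 0.23 (SE 0.07, adjusted p = 0.0498). It stayed past the threshold only without Rptor mouse 1 among the 6 fits that left out a mouse: the adjusted p was 0.1025 without WT mouse 1, 0.158 without WT mouse 2, 0.120 without WT mouse 3, 0.183 without Rptor mouse 2 and 0.156 without Rptor mouse 3. It was 0.129 with the offset for effective length and 0.0723 with the replicate block.

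The transcript from the P2 promoter, Hnf4a-205, is a short entry of 481 bases in the RNA-seq, 346 in the organoid Ribo-seq and 462 in the mouse reference. Its share of Hnf4a abundance (counts per effective length, for footprints too) in RNA was 20.4% and 22.3% in WT lines, 23.45% and 22.8% in Rptor lines, and 32.55%, 19.2% and 28.1% in SCe, on 357 to 796 counts a sample. In organoid footprints it was 20.0% to 22.2% in Rptor and 27.9% to 39.7% in SCe, where it rested on 9.895 to 39.5 counts. In mice it was 4.61% to 7.42% in WT and 4.675% to 8.21% in Rptor, on 2.01 to 45.1 counts. The mouse groups overlapped. As a share of Hnf4a counts, which uses no length, Hnf4a-205 took 0.771% to 1.42% in mice, 1.33% to 2.65% in organoid RNA and 2.41% to 5.56% in organoid footprints, so mice and organoid RNA overlapped on that scale. A further entry, Hnf4a-204, with an internal start, took 20.4% to 22.7% of abundance in Rptor organoid footprints and 0% to 16.1% in SCe. In organoid RNA it took at most 0.76%. The proximal entries took 56.4% to 57.4% in Rptor organoid footprints and 51.2% to 72.1% in SCe. The P2 shares of footprints therefore depend on Hnf4a-204 too. The proximal entries Hnf4a-201 and Hnf4a-202 start 1 base apart and traded counts between samples: Hnf4a-201 took 99.2% of Hnf4a counts in WT mouse 1 and 0% in WT mouse 2. Counting only the entry with most counts gave a mouse log2 fold change of -0.06 (edgeR adjusted p = 0.999).

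**Figure D3:**
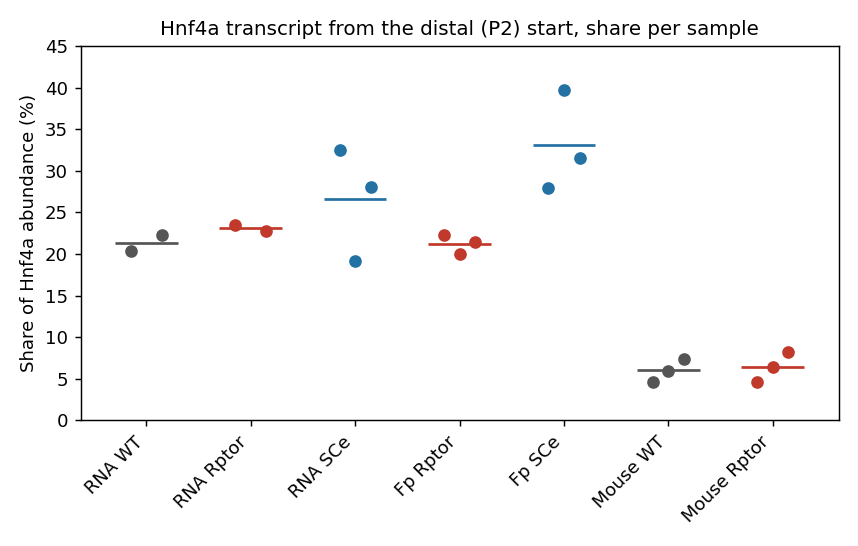
Share of Hnf4a abundance from the distal P2 start (vertical axis, percent) for each sample, by group, with group means as bars; Fp marks organoid footprints. Organoid RNA lies between 19.2% and 32.55%, and mouse footprints between 4.61% and 8.21%; as a share of counts (not plotted) they overlap.

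Hnf4g footprints were higher in Rptor than in SCe organoids, and higher in Rptor than in WT mice. The controls thus differ in kind, and the footprints covered no WT organoids. In organoids they were 164, 179.5 and 206 CPM in Rptor and 15.7, 53.0 and 42.1 CPM in SCe. The groups were far apart, with a log2 fold change of 2.32 (95% interval 1.51 to 3.14, edgeR adjusted p = 0.00422). In mice they were 511, 596 and 569 CPM in WT and 753, 811 and 796 CPM in Rptor. No Rptor mouse reached down to a WT mouse, and the rise was 0.49 on the log2 scale (SE 0.07, adjusted p = 0.000407). Both calls held under all 12 alternatives run, with log2 fold changes of 1.985 to 2.61 in organoids and 0.44 to 0.54 in mice. Per length, Hnf4g was the highest member in mice, at 454 ± 33.3 TPM in WT and 624 ± 18.8 TPM in Rptor (SD, n = 3 each).

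Hnf4g RNA was 163 and 192 CPM in WT lines, 172 and 200.3 CPM in Rptor lines, and 16.15, 74.1 and 76.1 CPM in SCe. WT and Rptor lines overlapped (log2 fold change 0.07, 95% interval -0.24 to 0.37, edgeR adjusted p = 0.707). SCe replicate 1 was the low sample in RNA, as was the SCe footprint sample of that number. The change from WT to SCe was -1.65 (adjusted p = 0.0969), and -1.22 (adjusted p = 0.000321) without SCe replicate 1. Rptor against SCe was 1.75 (adjusted p = 0.0788), and 1.31 (adjusted p = 0.000302) without it. The distal transcript Hnf4g-201 took 48.8% of Hnf4g abundance in SCe replicate 1 and 13.3% to 17.5% in the other RNA samples, and no organoid footprints.

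Enterocyte genes known as targets of CDX2 or HNF4 were counted from a list of 20. In Rptor organoids 3 of 20 rose and 1 fell against WT, a share close to the 22.6% of all genes called. Apob, the protein core of chylomicrons, rose from 1485 ± 19.8 to 2514 ± 33.9 CPM (SD, n = 2 each, log2 fold change 0.76, edgeR adjusted p = 0.0134), Myo1a, a brush border myosin, rose by 0.70 (adjusted p = 0.0150), Lgals4, a galectin, rose by 0.46 (adjusted p = 0.0358), and Apoa1, an apolipoprotein, fell by 0.60 (adjusted p = 0.04125). In SCe 3 of 20 fell and none rose, fewer than the 19.9% of all genes called lower: Alpi, intestinal alkaline phosphatase, fell by 2.51, Lgals4 by 1.39 and Tmprss15, enteropeptidase, from 0.981 ± 0.666 CPM (SD, n = 2) to 0.0378 ± 0.0231 CPM (SD, n = 3). Of the 20 log2 fold changes in SCe 16 were below 0, with a median of -0.64 against 0.02 over all genes. In organoid footprints, where 6.63% of all genes were called higher, 6 of the 19 tested were higher in Rptor and none lower, with Alpi at 1307 ± 199 CPM against 279 ± 61.4 CPM in SCe (SD, n = 3 each, adjusted p = 0.000976), Apoa1 higher by 2.38, Myo1a by 1.58 and Lgals4 by 1.36 on the log2 scale.

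In mice 9 of the 20 targets were higher and 2 lower in Rptor, with a median log2 fold change of 0.22 against -0.02 over all genes, where 7.47% of genes were called higher and 5.97% lower. Muc13, a transmembrane mucin, was 2169 ± 223 CPM in WT and 4178 ± 122 CPM in Rptor mice (SD, n = 3 each, edgeR adjusted p = 4.61e-07). Apob rose by 0.74 on the log2 scale, and Cdhr2, which links microvilli, and Apoa4 rose by 0.48 each. Summed footprints of the 20 targets were 77760 to 79680 CPM in WT and 90840 to 96830 CPM in Rptor mice, while Lgr5 was at 6.32 to 45.8 CPM in the 6 mice.

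Gata4 RNA was 174 and 164 CPM in WT lines, 166 and 167 CPM in Rptor lines, and 119, 130 and 126 CPM in SCe. SCe lay below the 4 lines. It fell by 0.41 on the log2 scale from WT to SCe (SE 0.07, edgeR adjusted p = 0.00994), a call lost without WT line 1 (adjusted p = 0.0828) or WT line 2 (0.0629). Rptor lines were 0.42 above SCe (adjusted p = 0.00957), lost without Rptor line 1 (0.0663) or 2 (0.0719). Gata4 footprints in organoids overlapped, at 130, 129 and 128.5 CPM in Rptor and 100.4, 161 and 117 CPM in SCe. In mice they were 106, 105.5 and 99.5 CPM in WT and 86.0, 73.1 and 86.15 CPM in Rptor. The mouse groups did not overlap, and the level fell by 0.33 (SE 0.10, adjusted p = 0.0353). That call was lost without WT mouse 1 (adjusted p = 0.0757), WT mouse 2 (0.127), WT mouse 3 (0.08995), Rptor mouse 2 (0.187) or Rptor mouse 3 (0.0534). It was also lost with DESeq2 (adjusted p = 0.163), with the replicate block (0.0546), with the offset for effective length, where the change was -0.10 (0.745), and with only the transcript with most counts, where it was -0.95 (0.176).

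Gata4 footprints were spread over transcript entries of very unequal length. Gata4-204, an entry of 94 bases in the organoid Ribo-seq reference, took 83.9%, 67.6% and 64.8% of Gata4 abundance in Rptor organoids and 0% in the 3 SCe samples, on 18.3, 7.74 and 10.1 counts and an effective length of 4.355 bases. With an offset for effective length the organoid log2 fold change was 1.89 (edgeR adjusted p = 0.0302) in place of 0.04 (adjusted p = 0.907). The ileal genes Fabp6 and Slc10a2, which GATA4 holds down, both rose in Rptor mice, by 0.355 (adjusted p = 0.0233) and 0.65 (adjusted p = 0.00730) on the log2 scale. Of all genes 7.47% were called higher there, and a part of Gata4 in these 2 changes was not tested. Fabp6 was 1079, 1093 and 839.6 CPM in WT and 1177, 1281 and 1373 CPM in Rptor mice. In organoid RNA only 1 of these 2 genes was tested, and they summed to 0.803 to 3.04 CPM a sample. The gene tested was called lower in SCe than in WT (-1.53, beside 19.9% of all genes), where Gata4 was lower too. It was called higher in Rptor than in SCe (1.82, beside 21% of all genes), where Gata4 was higher too. It was not called in Rptor against WT (0.27).

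Gata6 did not pass the test in any comparison. Its RNA was 77.95 and 76.7 CPM in WT lines, 63.05 and 74.8 CPM in Rptor lines, and 69.0, 78.7 and 69.4 CPM in SCe. It was the only member whose SCe and WT samples overlapped, where 69.1% of all genes had SCe and WT groups that did not overlap. Footprints were 102, 97.8 and 94.9 CPM in Rptor organoids, 78.7, 119.8 and 93.2 CPM in SCe, 94.8, 82.2 and 77.8 CPM in WT mice, and 75.1, 81.3 and 78.3 CPM in Rptor mice. The mouse interval of -0.2845 to 0.13 on the log2 scale leaves out changes as large as that of Hnf4g.

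Klf4 showed the largest change of the members in Rptor against WT organoids. Its RNA was 32.7 and 23.9 CPM in WT lines, 86.2 and 83.2 CPM in Rptor lines, and 21.4, 13.5 and 15.3 CPM in SCe. Rptor lines stood above all others, 1.58 above WT on the log2 scale (SE 0.16, edgeR adjusted p = 0.0109) and 2.34 above SCe (SE 0.20, adjusted p = 0.00184), and both calls held under every alternative run (11 and 12). The 7 goblet cell genes moved the same way in RNA, with sums of 1761 to 1902 CPM in WT, 3088 to 4291 CPM in Rptor and 247 to 480.5 CPM in SCe, and their part in the Klf4 values was not tested. The change of Klf4 from WT to SCe was -0.74 (adjusted p = 0.0609), and -0.96 (adjusted p = 0.00437) without SCe replicate 1.

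Organoid footprints of Klf4 did not separate the groups. They were 6.98, 8.58 and 5.48 CPM in Rptor and 7.05, 5.13 and 7.40 CPM in SCe, on 42, 54 and 45 counts against 13, 6 and 32 counts. The log2 fold change was 0.06 (95% interval -0.73 to 0.84, edgeR adjusted p = 0.930). Footprints relative to RNA, tested as the difference between the footprint and the RNA contrast, were 2.25 lower in Rptor than in SCe on the log2 scale (SE 0.35, adjusted p = 0.0105). Klf4 was the 1 of 10 members called, with 2.93% of the 10747 genes tested called (1.81% lower), and the call was lost without RNA-seq Rptor line 1 (-2.23, adjusted p = 0.0684), with an offset for effective length (-2.78, 0.0768) and with only the transcript with most counts (-1.95, 0.0507). It was also lost with the replicate block (edgeR adjusted p = 0.120). The RNA and footprint samples of Rptor are different organoids with different genotype labels. In mice Klf4 footprints were 93.5, 92.7 and 89.5 CPM in WT and 94.2, 109 and 116 CPM in Rptor. The groups did not overlap, and the change of 0.23 (adjusted p = 0.1445) passed only without Rptor mouse 1 (0.31, adjusted p = 0.0232).

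Klf5 was higher in Rptor in RNA and in both footprint comparisons, against SCe organoids and against WT mice. Its RNA was 327.5 and 300.5 CPM in WT lines, 426 and 426 CPM in Rptor lines, and 163, 257 and 209.5 CPM in SCe. The 3 groups did not overlap. It rose by 0.44 on the log2 scale in Rptor lines (SE 0.07, edgeR adjusted p = 0.02255), a call lost without WT line 1 (adjusted p = 0.0741), WT line 2 (0.1345) or Rptor line 1 (0.05615), and with all 3 RNA-seq groups in one fit (0.212). Rptor lines were 1.02 above SCe (adjusted p = 0.0125), lost without Rptor line 1 (0.0761) or 2 (0.0786). From WT to SCe the change was -0.56 (adjusted p = 0.0775), and it passed without SCe replicate 1 (-0.41, adjusted p = 0.0203) or 2 (-0.73, adjusted p = 0.0389).

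Klf5 footprints were 470, 466 and 499.8 CPM in Rptor organoids and 210, 272 and 266 CPM in SCe, 0.94 higher in Rptor (SE 0.17, edgeR adjusted p = 0.00800). The call was lost without Rptor replicate 3 (adjusted p = 0.05615). In mice they were 406, 389 and 382 CPM in WT and 476, 534 and 461.5 CPM in Rptor. Every Rptor mouse was above every WT mouse, with a rise of 0.33 (SE 0.08, adjusted p = 0.0103), lost without WT mouse 3 (adjusted p = 0.0627) or Rptor mouse 2 (0.0799) and with only the transcript with most counts (0.115).

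Sox9 footprints varied more between replicates than between groups. Its RNA was 88.5 and 86.9 CPM in WT lines, 86.1 and 85.9 CPM in Rptor lines, and 73.6, 60.8 and 47.4 CPM in SCe. WT and Rptor differed by -0.03 on the log2 scale (95% interval -0.16 to 0.10), and SCe was 0.51 below WT (edgeR adjusted p = 0.08015), which passed without SCe replicate 1 (-0.68, adjusted p = 0.00520). Footprints were 225, 222 and 217 CPM in Rptor organoids but 105, 423 and 262 CPM in SCe, and without SCe replicate 1 Rptor was lower by 0.61 (adjusted p = 0.0432). In mice they were 41.7, 31.5 and 40.2 CPM in WT and 69.2, 22.2 and 28.8 CPM in Rptor. Rptor mouse 1 was the high sample, and without it the change was -0.51 (adjusted p = 0.0305) in place of 0.04 (adjusted p = 0.970). In that same mouse Lgr5 was 45.8 CPM and Smoc2 107 CPM, against Lgr5 at 8.525 and 6.32 CPM and Smoc2 at 36.2 and 30.95 CPM in Rptor mice 2 and 3. The part of these markers was not tested.

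Onecut2 RNA was 429 and 459.8 CPM in WT lines, 432 and 536 CPM in Rptor lines, and 145, 179.6 and 158 CPM in SCe. SCe lay far below, by 1.45 on the log2 scale against WT (SE 0.11, edgeR adjusted p = 0.00171), and Rptor lines were 1.59 above SCe (adjusted p = 0.00188), both under all 12 alternatives run. Organoid footprints were 18.3, 18.1 and 16.7 CPM in Rptor and 7.60, 13.7 and 9.02 CPM in SCe, on 14 to 137 counts. They did not overlap, but the change of 0.86 missed the threshold (adjusted p = 0.0619) and passed without SCe replicate 2 (1.07, adjusted p = 0.0352). In mice Onecut2 rested on 4 to 73 counts and its groups overlapped.

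Per length, the order of the members differed between RNA and footprints of organoids, whose Rptor groups carry different genotype labels in the 2 assays. In Rptor organoids the ratio of mean footprint TPM (per listed length) to mean RNA TPM was 4.16 for Sox9, 2.22 for Gata6, 1.64 for Klf5, 1.09 for Cdx2, 0.996 for Hnf4a, 0.926 for Hnf4g, 0.802 for Gata4, 0.453 for Cdx1, 0.2445 for Onecut2 and 0.107 for Klf4. In SCe it was 7.95 for Sox9 and 0.675 for Klf4, which had the next to lowest ratio above Onecut2 at 0.467. Sox9 was thus the highest and Klf4 and Onecut2 the lowest pair in both. The entries of the organoid Ribo-seq reference are shorter than those of RNA-seq (Hnf4a-201 has 1471 and 4356 bases), which enters these ratios.

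**Figure D4:**
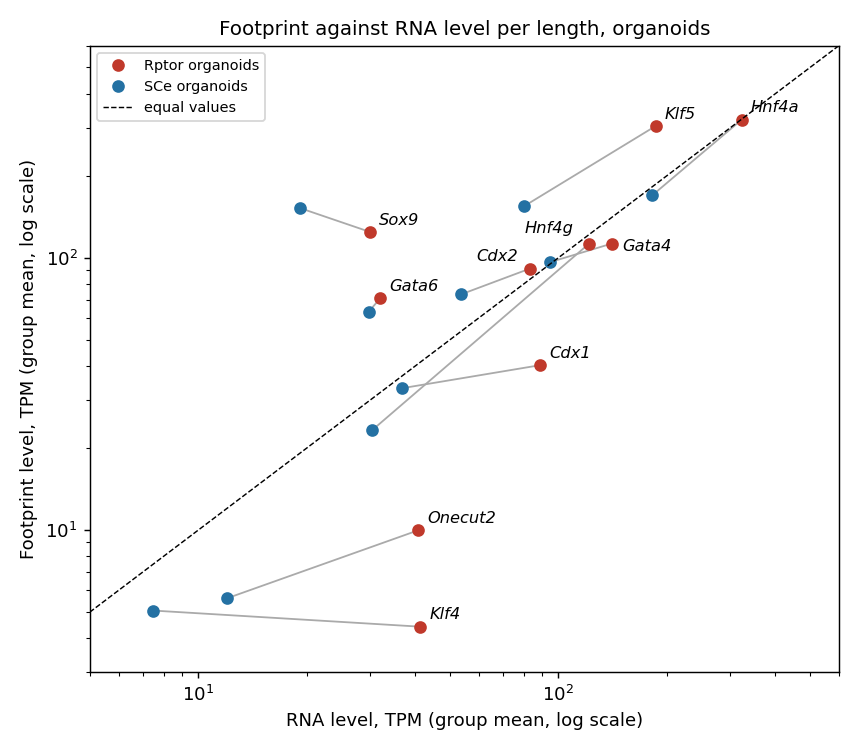
Mean footprint level (vertical axis, TPM per listed length) against mean RNA level (horizontal axis, TPM per effective length) of the members in Rptor organoids (red) and SCe organoids (blue), both axes logarithmic, with equality as a dashed line. Sox9 lies above the line in both groups, and Klf4 in Rptor organoids lies farthest below it, at a ratio of 0.107.

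In mice the order per length was Hnf4g, Klf5, Hnf4a, Cdx2 and Gata4 in both groups, then Klf4, Gata6, Cdx1, Sox9 and Onecut2. In WT mice the range of Gata6 (mean 51.75 TPM) overlapped those of Klf4 (53.4 TPM) and Cdx1 (47.7 TPM), and in Rptor mice Gata4 overlapped Klf4, and Cdx1 overlapped Sox9. In WT organoid RNA, Gata4 and Klf5 (134 and 126 TPM) overlapped, as did Onecut2 and Gata6 (34.4 and 33.3 TPM).

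Entries for the 5′ untranslated region, kept apart from the counts above, show where footprints lie before the coding part. In Rptor organoids they held 28.3%, 29.05% and 27.6% of all Gata4 footprints and 13.5%, 13.9% and 14.9% of those of Cdx2, while over all genes they held 3.97%, 4.25% and 3.815%. In SCe they held 31.8%, 21.0% and 12.5% for Gata4 and 26.8%, 19.2% and 21.65% for Cdx2, against 6.985%, 5.42% and 2.97% over all genes. Gata4, Cdx2, Gata6, Onecut2 and Klf4 were above the share over all genes in all 6 samples, Gata6 at 4.28% to 8.675%. Cdx1 was at 0.957% to 3.85% in the 6 samples, below the share over all genes except in SCe replicate 3 (3.35% against 2.97%). Klf5, Sox9, Hnf4a and Hnf4g were above the share over all genes in some samples and below it in others. Onecut2 and Klf4 were at 11.3% to 44% and 5.88% to 33.3%, on as few as 9 and 2 counts in these entries. The listed entries differ in length, with 90 bases for Cdx1, 299 for Cdx2, 372 for Sox9, 606 and 622 for Klf4, and 256 to 660 for Gata4. These shares use no length, and the part of length in the differences between genes was not tested.

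Other transcription factors of the gut epithelium were counted from a list of 22. In Rptor lines 4 of the 20 tested rose and 2 fell, beside 22.6% of all genes called: Isx, an intestinal homeobox factor, was 0.106 ± 0.0364 CPM in WT and 7.19 ± 3.32 CPM in Rptor (SD, n = 2 each, edgeR adjusted p = 0.0101), Klf6 rose by 0.64 on the log2 scale, Onecut3 rose by 2.13, and Ppara, a fatty acid receptor, fell by 0.65. In SCe 2 of 20 rose and 5 fell, beside 42.3% of all genes called, with Ppara at 8.005 ± 2.51 CPM (SD, n = 3) against 38.9 ± 3.24 CPM in WT (SD, n = 2, adjusted p = 0.00478). Nr1i2, the pregnane X receptor, fell by 0.81 and Onecut3 rose by 2.305, while Onecut1, also called higher, had 1 count in each WT line and 0.371 ± 0.0816 CPM in SCe (SD, n = 3). In organoid footprints 2 of the 18 tested were higher and 1 lower in Rptor, beside 16.5% of all genes called, Ppara at 24.9 ± 2.30 CPM against 1.94 ± 0.691 CPM (SD, n = 3 each), Creb3l3 higher by 1.33, and Foxa3, a forkhead factor, lower (-0.77). In mice 5 of the 19 tested were higher and none lower, beside 7.47% of all genes called higher, among them Prdm1, a repressor active in the neonatal gut (0.99, adjusted p = 0.00325), Klf3 (0.38), the epithelial factor Elf3 (0.33) and Klf6 (0.28). The KLF factors Klf5 and Klf6 were higher in Rptor both in organoid RNA and in mouse footprints.

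Marker genes of several cell types moved along with these groups. Summed RNA of 7 goblet cell genes was 1761 to 1902 CPM in WT lines, 3088 to 4291 CPM in Rptor lines and 247 to 480.5 CPM in SCe, and their summed footprints were 3222 to 5247 CPM in Rptor organoids and 1187 to 1576 CPM in SCe. Of these 7, 4 rose in Rptor against WT lines, 5 fell in SCe against WT, and 7 were higher in Rptor than in SCe footprints. The shares of all genes called in these directions were 11.6%, 19.9% and 6.63%, in that order. Summed RNA of 5 stem cell genes was 3561 and 5127 CPM in WT lines, 803 and 2042 CPM in Rptor lines and 826 to 1606 CPM in SCe, that of 7 Paneth cell genes 4986 to 6196, 884 to 1851 and 923 to 4096 CPM, and that of 6 fetal-like genes 167 to 199.5, 617 to 1013 and 166 to 373.5 CPM. In Rptor against WT lines 4 of 5 stem and 6 of 7 Paneth genes fell and 6 of 6 fetal-like genes rose. Over all genes 11% were called lower and 11.6% higher in that comparison. In SCe against WT 2 of 5 stem genes fell and none rose, beside 19.9% of all genes called lower. There the stem genes did not move together: 3 of the 5 log2 fold changes were above 0, with a median of 0.11 and a range of -5.555 to 0.98. In organoid footprints the stem genes summed to 4997 to 5329 CPM in Rptor and 1551 to 3050 CPM in SCe, while 1 of the 5 was higher and 2 were lower in Rptor. Over all genes 6.63% were called higher and 9.84% lower in these footprints. Footprints of Paneth genes summed to 6268 to 9329 CPM in Rptor and 3409 to 5939 CPM in SCe. The organoid and mouse Ribo-seq references list 6 of the 7 Paneth genes, so these sums and those in RNA cover unlike sets. Those of fetal-like genes summed to 228.5 to 321 CPM in Rptor and 231 to 720.5 CPM in SCe. The fetal-like sums of Rptor and SCe thus overlapped in footprints, while in RNA those of Rptor were higher. The part of all these marker genes in the members' differences was not tested.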

How the data were processed

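Organoid RNA-seq, organoid Ribo-seq and mouse Ribo-seq were analysed in 23 libraries, which gave 19 samples once the technical libraries of a line were summed. Per the submitters' processing notes, reads were trimmed with cutadapt 1.18 and quantified with Salmon 1.1.0 on mm10. The authors deposited estimated counts per transcript, with lengths and effective lengths, and replicates were not pooled. A deposited table of the authors' own translation efficiency comparison, which holds p-values and pooled efficiencies, was not used.

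Estimated counts were summed per gene, without the entries for 5′ untranslated regions (suffix _uORF), and rounded. Groups were compared with edgeR 4.0.16 in R 4.3.3 (quasi-likelihood test, TMM, filterByExpr, two-sided, Benjamini-Hochberg over all genes tested, threshold 0.05), with only the compared groups in a fit. Intervals are 95% intervals of the fit. Footprints relative to RNA were tested as the interaction of assay and group. Levels per length used effective length for RNA and listed length for footprints, because Salmon's effective length subtracts a fragment length that short footprints do not have; the planned use of effective length was not kept there. Shares of transcripts within a gene used effective length throughout. The scripts were tested on simulated data. Replicates are samples labelled as separate; where the labels name no separate line or mouse, p-values measure only the spread between these samples. No pair of them agreed within sampling noise. Counts of PCR reads are not independent molecules.

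The alternatives were DESeq2 1.42.0, TMM without the 10 genes with most counts, no filter, each replicate left out, a replicate block, an offset for effective length (in footprints too, where that length is unsuited), technical libraries kept separate, the 3 RNA-seq groups in one fit and the transcript with most counts. All members and Rptor were named, and of the lists of other factors and of targets the 4 genes with the smallest adjusted p past the threshold in a comparison, some of them by name only; Fabp6, Slc10a2, Sox2, Lgr5 and Smoc2 were named besides, the last pair after their values were seen. The members and lists were chosen with earlier results of these data known. Differentiated organoid samples were not analysed here.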

Additional observations from a re-analysis of the deposited data

Results flagged for a closer look

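Hnf4a moved in opposite directions in the organoids and the mice: its RNA was -0.41 on the log2 scale in Rptor against WT organoids, with both Rptor lines below both WT lines, and its footprints were 0.23 in Rptor against WT mice, with all 3 Rptor mice above all 3 WT mice. The measurements come from different assays, and the difference between them was not tested. Groups did not overlap for 69.1% of all genes in the organoid comparison and 31.1% in the mouse comparison. The organoid call was lost with all 3 RNA-seq groups in one fit (edgeR adjusted p = 0.0505). The mouse call (edgeR adjusted p = 0.0498) was lost without any of the mice except Rptor mouse 1. The RNA and footprint samples of Rptor organoids are different organoids with different genotype labels, and the footprints did not pass the check of the deletion. With that limit, Klf4 stood out because its RNA and footprints differed between Rptor and SCe organoids by unlike amounts: the footprint difference minus the RNA difference was -2.25 on the log2 scale (edgeR adjusted p = 0.0105), on 6 to 54 footprint counts a sample. That call was lost without RNA-seq Rptor line 1 (adjusted p = 0.0684), with the replicate block (0.120), with the length offset (0.0768) and with only the transcript with most counts (0.0507).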

How the results depend on the processing

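Of the members' log2 fold changes under the alternatives, 643 kept their direction and side of the threshold, 62 dropped below it, 30 passed it and 25 changed sign. With DESeq2, 8 members were called in SCe against WT organoids and 3 in mice (969 genes), and 1206 genes were called for footprints relative to RNA. With technical libraries separate, 7208 genes were called in Rptor against WT organoids and 9 members in SCe against WT. With all 3 RNA-seq groups in one fit, 1 member and 1544 genes were called in Rptor against WT and 8 members in SCe against WT. With the length offset, 659 genes were called in organoid footprints, 0 members and 116 genes relative to RNA, and 2 members and 678 genes in mice. With the transcript with most counts these were 508 genes, 0 members and 198 genes, and 1 member and 346 genes. The causes were not tested.

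The replicate numbers were not taken to pair the samples: correlations of same-numbered deviations were -0.054, 0.027 and 0.026 in organoid footprints and -0.016, 0.022 and 0.0039 in mice, and the RNA comparisons have only 2 pairs each, with 0.42 in Rptor against WT, 0.241 and 0.219 in SCe against WT, and 0.330 and 0.294 in Rptor against SCe. With the replicate block 3, 4, 5, 3, 0 and 2 members were called, in the order Rptor against WT, SCe against WT and Rptor against SCe organoids in RNA, organoid footprints, footprints relative to RNA, and mice. The replicate block called 4751, 3154, 3413, 1228, 4 and 1305 genes in that order. Under it Cdx2 and Gata4 were no longer called in either RNA comparison with SCe (adjusted p = 0.0674 to 0.0803), nor Klf4 relative to RNA (0.120), nor Cdx2 (0.0635), Gata4 (0.0546) and Hnf4a (0.0723) in mice, while Klf4 passed in SCe against WT (0.0458).

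Leaving out each replicate gave 1 to 2 members and 939 to 2126 genes called in Rptor against WT organoids, 3 to 9 and 2027 to 9530 in SCe against WT, 4 to 9 and 2509 to 9101 in Rptor against SCe, 1 to 4 and 669 to 2682 in organoid footprints, 0 to 2 and 25 to 951 relative to RNA, and 1 to 7 and 897 to 1954 in mice.

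Signs changed as follows, for log2 fold changes. Over the fits that left out a replicate, in Rptor against WT organoids Cdx2 went from -0.168 to 0.0078 and Gata4 from -0.0609 to 0.0169 (both above 0 without WT line 1), Hnf4g from -0.0488 to 0.188 (below 0 without WT line 1 or Rptor line 2) and Onecut2 from -0.0254 to 0.27 (below 0 without Rptor line 2). In Rptor against SCe RNA Gata6 went from -0.188 to 0.0547 (above 0 without Rptor line 1). In organoid footprints Cdx1 went from -0.108 to 0.487 (below 0 without SCe replicate 3), Gata4 from -0.0778 to 0.252 and Gata6 from -0.0901 to 0.193 (both below 0 without SCe replicate 1, Gata6 also without Rptor replicate 1), Klf4 from -0.0948 to 0.228 (below 0 without Rptor or SCe replicate 2) and Sox9 from -0.614 to 0.263 (above 0 without SCe replicate 2). Relative to RNA Cdx2 went from -0.236 to 0.101 and Klf5 from -0.201 to 0.138 (above 0 without footprint SCe replicate 2, Klf5 also without RNA-seq SCe replicate 1 or footprint SCe replicate 3), Cdx1 passed without footprint SCe replicate 3 (-1.17, edgeR adjusted p = 0.0271) and Sox9 without footprint SCe replicate 1 (-1.08). In mice Onecut2 went from -0.569 to 0.309 (above 0 without WT mouse 3) and Sox9 from -0.509 to 0.303 (below 0 without WT mouse 2 or Rptor mouse 1). With the transcript with most counts Gata6 was -0.0037 in organoid footprints and Hnf4a -0.0624 in mice; with the length offset Klf4 was -0.473 in organoid footprints and Gata4 1.54 relative to RNA; with the replicate block Sox9 was -0.177 in mice. Low footprint counts limit Klf4 and Onecut2.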
